A study of Mus musculus with 12 samples.

Results

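The 9 monocyte and macrophage marker genes described here were followed through bulk RNA-seq of sorted mouse bone marrow neutrophils: Csf1r, Adgre1, Ccr2, Cx3cr1, Ly6c2, Ms4a6c, Irf8, Klf4 and F13a1. They were chosen by name as standard markers of the monocyte lineage, and each symbol was matched to its row of the gene count table. All 9 were found among 37310 genes, and all 9 were among the 12917 genes that passed the filter on low counts and were tested. The cells had been gated against one of these markers, since the sort kept CD11b+, Siglec F-, Ly6G+ cells that lacked F4/80, the surface antigen that Adgre1 encodes.

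The 12 libraries formed 4 groups of 3, all from C57BL/6 mice: Runx1KO cells with LPS, Runx1KO cells with vehicle, Control cells with LPS and Control cells with vehicle. LPS is lipopolysaccharide, a bacterial cell wall component sensed through Toll-like receptor 4; it was given at 100 ng/mL, and cells of all groups were kept for 2 h in the same buffered medium after the sort. The study asked whether loss of Runx1, a transcription factor that blood cells need to form and mature, alters what neutrophils make after such a signal. The sources used here do not give what deletes Runx1, in which cells, or the age of the mice. For Control, the series' design text speaks of LKS- cells, which are progenitors, from marrow pooled from a Runx1f/f mouse and a Runx1f/- mouse that carries a germline mutation of 1 Runx1 allele, whereas the labels of every Control library describe the neutrophil sort; this bears on each comparison of genotypes. Nothing in the labels ties the 3 libraries of a group to different mice, so p-values reflect spread among libraries that may be technical in part; library 2 of each group, which had no Xist reads, came from other material than libraries 1 and 3.

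Library totals ran between 19023610 and 26225169 counts, and levels are given as counts per 1000000 counts (CPM) on library sizes scaled by the trimmed mean of M values (TMM). Runx1 itself had 43.7 to 68.6 CPM in Runx1KO LPS, 60.5 to 75.4 CPM in Runx1KO vehicle, 26.1 to 50.9 CPM in Control LPS and 36.8 to 56.2 CPM in Control vehicle libraries; a count over the whole gene cannot show whether an exon was deleted, so it does not check the genotype labels. Tnf, an early target of LPS, went against the treatment labels in places: it had 488, 2866 and 8859 CPM in Runx1KO LPS libraries 1, 2 and 3, 1419, 1184 and 73.0 CPM in Runx1KO vehicle, 1898, 1264 and 1927 CPM in Control LPS, and 1281, 594 and 28.2 CPM in Control vehicle. The vehicle libraries numbered 1 thus had Tnf within the range of the Control LPS libraries. Those numbered 2, at 1184 and 594 CPM, lay below every LPS library but Runx1KO LPS 1. The library labelled Runx1KO LPS 1 had less than the vehicle library of its number. Libraries with the same number also deviated together across genes, and the 4 libraries numbered 2 had no Xist reads while the other 8 had 42.4 to 65.7 CPM.

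Monocytes leave the bone marrow as Ly6C-high cells that carry Ccr2 and little Cx3cr1, and part of them turn into Ly6C-low patrolling monocytes that carry more Cx3cr1 and depend on Nr4a1; both stages and most tissue macrophages use the Csf1 receptor for survival. Irf8 drives progenitors toward monocytes and away from neutrophils, and Klf4 is needed downstream of it for monocyte differentiation. None of these markers is confined to the lineage: mouse neutrophils show Ly6C at an intermediate level on their surface, and they are known to contain Csf1r transcripts. In bulk RNA, fewer cells of a type and less RNA per cell cannot be told apart.

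Per kilobase of exon, the 9 genes formed 2 tiers of abundance. Ly6c2 was highest, at a mean of 398 CPM per kb over the 12 libraries, beside 315 CPM per kb for Ly6g and 283 CPM per kb for Itgam, the genes of the antigens on which the cells were selected. Adgre1 and Csf1r followed with 59.3 and 45.5 CPM per kb. The other 6 were at or below 1.46 CPM per kb: Ms4a6c at 1.46, F13a1 at 1.34, Irf8 at 1.20, Ccr2 at 0.527, Cx3cr1 at 0.358 and Klf4 at 0.293 CPM per kb. For scale, the neutrophil granule gene S100a8 stood at 53721 CPM per kb. Exon lengths came from a GRCm38 annotation, not from the mm9 build of the authors' alignment.

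**Figure D1:**
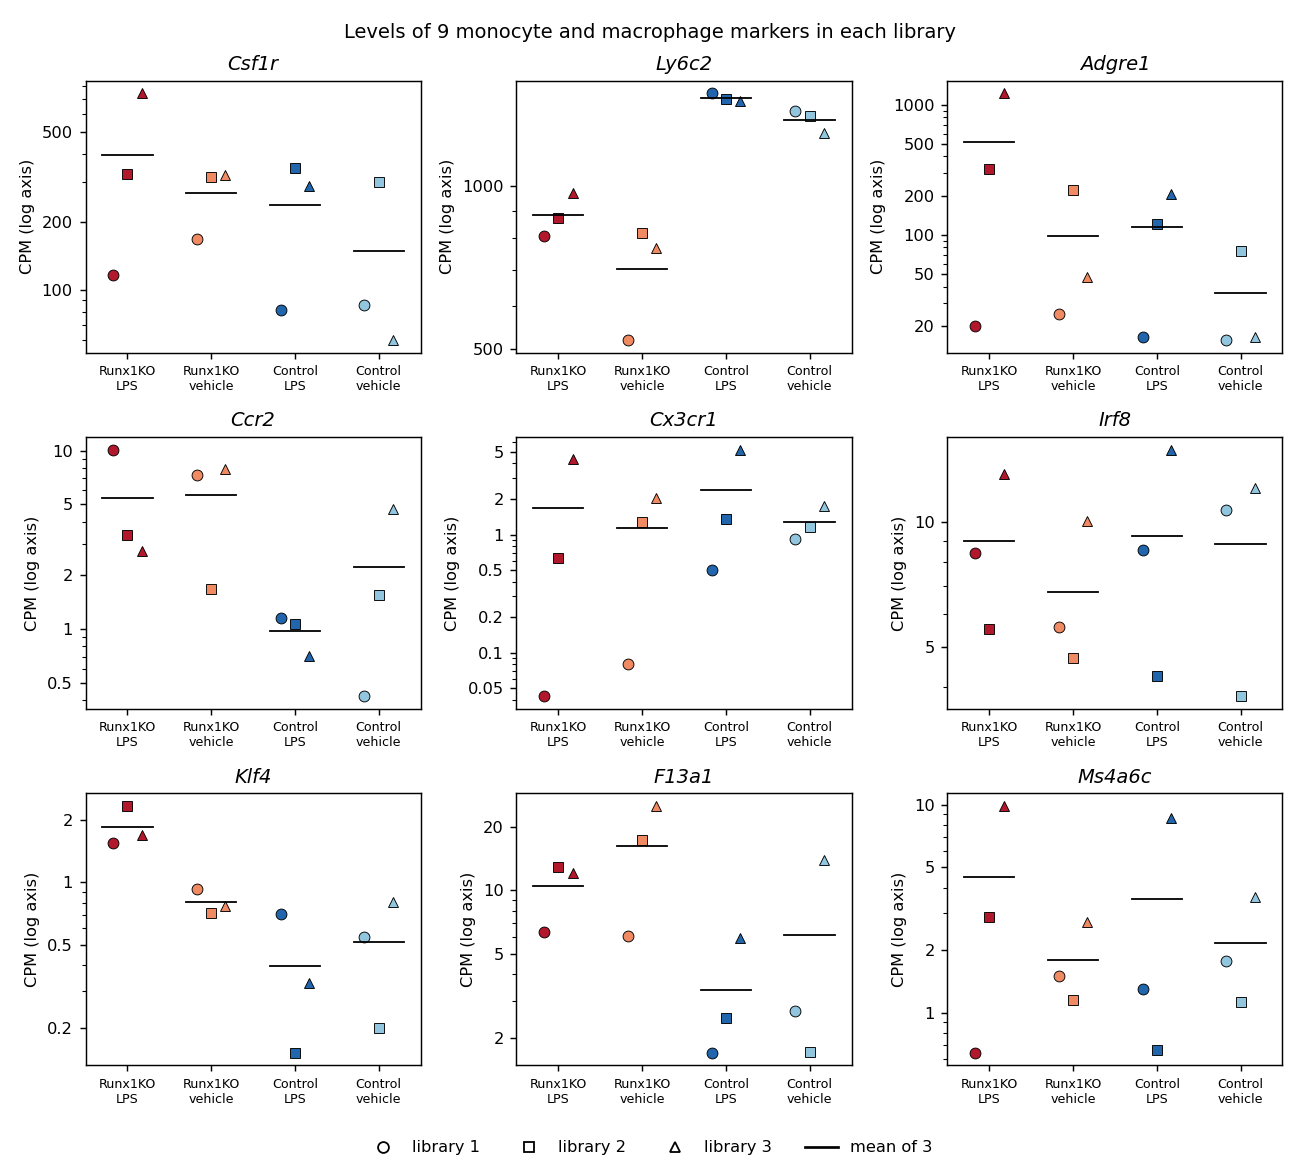
CPM of each of the 9 markers on a log axis, 1 panel per gene, for Runx1KO LPS, Runx1KO vehicle, Control LPS and Control vehicle; circles, squares and triangles are libraries 1, 2 and 3 and the bar is the mean of 3. Ly6c2 lies at or below 969 CPM in all Runx1KO libraries and at or above 1253 CPM in all Control libraries, while for Adgre1 and Csf1r every 2 groups overlap.

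The 2 receptors with high counts varied widely within groups. Csf1r (ENSMUSG00000024621.8), the receptor for Csf1 and Il34, had 117, 326 and 741 CPM in Runx1KO LPS libraries 1, 2 and 3, 169, 317 and 322 CPM in Runx1KO vehicle, 81.8, 345 and 288 CPM in Control LPS, and 85.4, 299 and 59.9 CPM in Control vehicle. Library 1 was the lowest of its group in 3 of the 4 groups, and all 4 groups overlapped. Adgre1 (ENSMUSG00000004730.7), the adhesion receptor recognised as F4/80, had 20.1, 318 and 1219.9 CPM in Runx1KO LPS, 24.8, 223 and 47.4 CPM in Runx1KO vehicle, 16.4, 122 and 207 CPM in Control LPS, and 15.5, 74.9 and 16.4 CPM in Control vehicle. In the libraries numbered 1 it stayed within 15.5 to 24.8 CPM in every group, in those numbered 2 it was within 74.9 to 318 CPM, and in those numbered 3 the LPS libraries stood far above the vehicle libraries. Its highest value, in Runx1KO LPS library 3, came from 21700 reads. The cells had been sorted as negative for the surface antigen before the 2 h of treatment, whereas these reads are RNA taken after it. The purity of the sort was not tested. The groups overlapped in every pair, and the order of the group means, Runx1KO LPS first, then Control LPS, Runx1KO vehicle and Control vehicle, has no gap between neighbours.

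Ccr2 and Cx3cr1, the chemokine receptors that separate the 2 monocyte stages, were rare. Ccr2 (ENSMUSG00000049103.6), the receptor for Ccl2 by which monocytes leave the marrow, had 10.1, 3.37 and 2.75 CPM in Runx1KO LPS, 7.33, 1.68 and 7.85 CPM in Runx1KO vehicle, 1.15, 1.06 and 0.706 CPM in Control LPS, and 0.420, 1.56 and 4.70 CPM in Control vehicle. All 3 Runx1KO LPS libraries lay above all 3 Control LPS libraries, whereas with vehicle the genotypes overlapped through Runx1KO library 2 and Control library 3. Cx3cr1 (ENSMUSG00000052336.5), the fractalkine receptor, had 0.0428, 0.629 and 4.38 CPM in Runx1KO LPS, 0.0809, 1.29 and 2.03 CPM in Runx1KO vehicle, 0.501, 1.37 and 5.22 CPM in Control LPS, and 0.924, 1.16 and 1.73 CPM in Control vehicle. Library 3 was the highest of each group, and the Runx1KO libraries numbered 1 rested on 1 read with LPS and 2 reads with vehicle. No 2 groups were separate for Cx3cr1.

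Ly6c2 was the member whose groups stood apart most clearly. Ly6c2 (ENSMUSG00000022584.8), 1 of the 2 genes that encode the Ly6C antigen, had 807, 873 and 969 CPM in Runx1KO LPS, 519, 819 and 769 CPM in Runx1KO vehicle, 1481, 1448 and 1437 CPM in Control LPS, and 1371, 1345 and 1253 CPM in Control vehicle. Every Runx1KO library was below every Control library, under either treatment. The gap between genotypes was also present on library size alone. Control LPS lay above Control vehicle without overlap by a small margin on the TMM scale, the Control groups overlapped on library size alone, and the Runx1KO groups overlapped on both. Its neighbour Ly6c1, the second Ly6C gene, showed a like order at a lower level: 46.3, 56.8 and 52.6 CPM in Runx1KO LPS, 26.3, 43.8 and 40.2 CPM in Runx1KO vehicle, 75.6, 63.0 and 76.0 CPM in Control LPS, and 72.4, 54.4 and 67.9 CPM in Control vehicle. Ly6g, whose product was used for the sort, had 156 to 351 CPM in Runx1KO LPS, 106 to 154 CPM in Runx1KO vehicle, 395 to 471 CPM in Control LPS and 381 to 418 CPM in Control vehicle.

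Reads of the 2 Ly6C genes can be mixed. Of 773 windows of 50 bases along a Ly6c2 transcript, 252 (32.6%) also occur in a Ly6c1 transcript, so counts may be split between them or lost, and their values are uncertain to that degree. The Ly6c2 count was 15.4 to 24.7 times the Ly6c1 count in each library. The upstream sequences of both genes are shown because these neighbours had like group orders and 1 of them holds the core motif of RUNX factors. The stretches are from RefSeq (GRCm38.p6, minus strand), written 5′ to 3′ in the direction of the gene and limited to bases outside every RefSeq transcript of the gene, chr15:75112067-75112221 for Ly6c2 and chr15:75048921-75049087 for Ly6c1. Capitals mark ACCACA, which is TGTGGT on the other strand, beginning 179 bases before the first of the 2 Ly6c2 starts searched. The Ly6c2 stretch ends at 75112067 because a RefSeq transcript of the gene begins further upstream than these starts. The motif is nearer to the start of that transcript.
Ly6c2: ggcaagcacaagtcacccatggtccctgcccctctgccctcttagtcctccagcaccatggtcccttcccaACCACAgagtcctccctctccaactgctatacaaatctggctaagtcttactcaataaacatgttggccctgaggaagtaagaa
Ly6c1: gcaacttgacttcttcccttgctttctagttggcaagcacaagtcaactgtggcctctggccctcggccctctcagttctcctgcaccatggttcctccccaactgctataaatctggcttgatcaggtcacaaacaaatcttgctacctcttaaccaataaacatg
The motif TGTGGT was searched on both strands of the 250 bases before each start, and 4614 of 32851 windows of all genes (14.045%) hold it. Of the markers, 7 of 9 had an entry in the promoter table, and 3 of their 10 windows hold the motif: both overlapping windows of Ly6c2 and the window of Cx3cr1, where it begins 54 bases before the start. A match in these letters is a description and does not show a bound site.

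**Figure D2:**
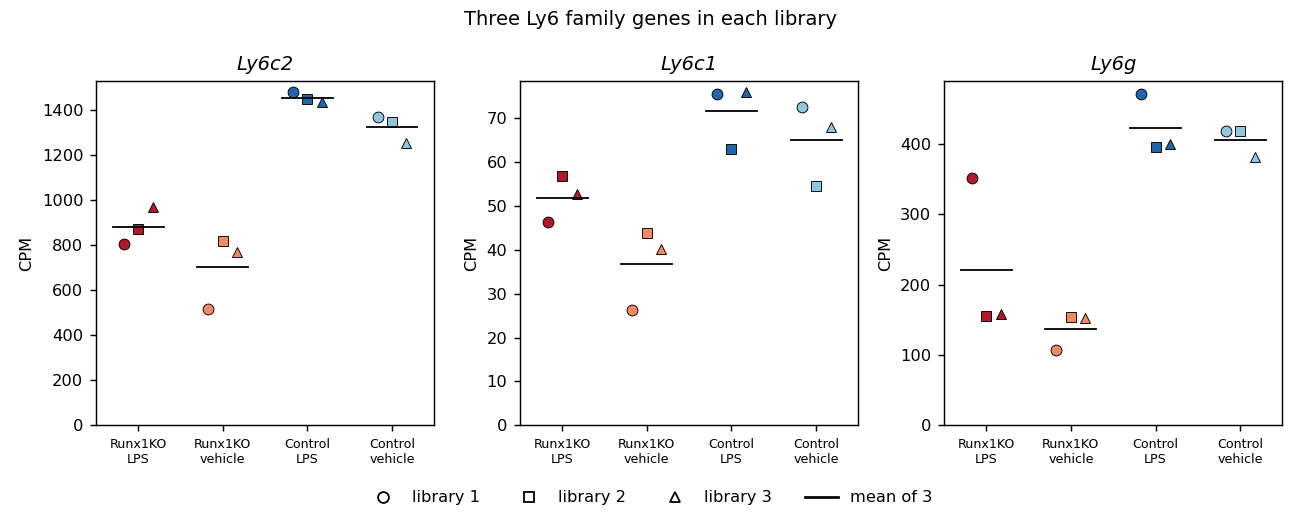
CPM of Ly6c2, Ly6c1 and Ly6g on linear axes from 0, for Runx1KO LPS, Runx1KO vehicle, Control LPS and Control vehicle; circles, squares and triangles are libraries 1, 2 and 3 and the bar is the mean of 3. For Ly6c2 and Ly6g every Runx1KO library lies below every Control library, while for Ly6c1 Runx1KO LPS library 2 (56.8 CPM) lies above Control vehicle library 2 (54.4 CPM).

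Ms4a6c (ENSMUSG00000079419.2), which encodes a multi-pass membrane protein of monocytes, had 0.642, 2.88 and 9.89 CPM in Runx1KO LPS, 1.50, 1.15 and 2.73 CPM in Runx1KO vehicle, 1.30, 0.658 and 8.66 CPM in Control LPS, and 1.76, 1.12 and 3.60 CPM in Control vehicle. Library 3 was the highest in each of the 4 groups, most of all with LPS, and all groups overlapped. The values rest on 13 reads in Control LPS library 2 to 184 reads in Control LPS library 3. The gene shares 109 of 1792 windows of 50 bases (6.08%) with Ms4a6b and none with Ms4a6d.

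The 2 transcription factors differed in how they varied. Irf8 (ENSMUSG00000041515.3) had 8.43, 5.53 and 13.1 CPM in Runx1KO LPS, 5.59, 4.70 and 10.1 CPM in Runx1KO vehicle, 8.57, 4.25 and 15.0 CPM in Control LPS, and 10.7, 3.80 and 12.1 CPM in Control vehicle. Its libraries kept 1 order in all 4 groups, with library 3 the highest, library 1 between and library 2 the lowest, and the groups overlapped. Klf4 (ENSMUSG00000003032.7) had 1.54, 2.34 and 1.69 CPM in Runx1KO LPS, 0.931, 0.709 and 0.771 CPM in Runx1KO vehicle, 0.702, 0.152 and 0.329 CPM in Control LPS, and 0.546, 0.200 and 0.804 CPM in Control vehicle. The Runx1KO LPS libraries lay above those of all other groups. The values rest on few reads: 36, 52 and 30 in Runx1KO LPS, 23, 16 and 22 in Runx1KO vehicle, 14, 3 and 7 in Control LPS, and 13, 5 and 19 in Control vehicle.

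F13a1 (ENSMUSG00000039109.8), the A subunit of clotting factor XIII, which monocytes carry and platelets carry too, had 6.34, 12.9 and 12.1 CPM in Runx1KO LPS, 6.07, 17.3 and 25.2 CPM in Runx1KO vehicle, 1.70, 2.48 and 5.98 CPM in Control LPS, and 2.69, 1.72 and 14.0 CPM in Control vehicle. With LPS the genotypes did not overlap, and with vehicle Control library 3 reached into the Runx1KO range. The summed level of 9 platelet and megakaryocyte genes was also higher in Runx1KO, at 43.6 to 58.6 CPM in Runx1KO LPS, 51.1 to 57.4 CPM in Runx1KO vehicle, 30.8 to 35.1 CPM in Control LPS and 28.6 to 35.1 CPM in Control vehicle. Most of the Control sum was Itgb3, which went the other way. It had 25.4 to 33.5 CPM in Control libraries and 11.1 to 20.5 CPM in Runx1KO libraries. The other 8 genes had positive fold changes in both treatments. The median log2 fold change of the 9 genes was 3.70 with vehicle and 2.79 with LPS. The part of these genes in the F13a1 values was not tested. F13a1, Cx3cr1, Ms4a6c and Csf1r each overlap a gene on the other strand in the GRCm38 annotation. The sources used here do not state whether counting used strand, so the assignment of reads in the shared stretches is uncertain. How long these stretches are was not measured.

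Between Runx1KO and Control cells with vehicle, Ly6c2 was the marker furthest from Control relative to its error, at about 0.53 of the Control level. It averaged 702 ± 161 CPM in Runx1KO vehicle and 1323 ± 61.9 CPM in Control vehicle (SD, n = 3 each), a log2 fold change of -0.91 (standard error, SE, 0.24; edgeR adjusted p = 0.132). It was lower in 3 of 3 same-numbered pairs, by 0.70 to 1.40 on the log2 scale. The share of all genes with 3 of 3 pairs in 1 direction was not computed, so such counts are descriptions here and below. The markers with positive fold changes were less certain: Adgre1 at 1.46 (SE 1.26), F13a1 at 1.40 (SE 0.76), Ccr2 at 1.34 (SE 0.79), Csf1r at 0.86 (SE 0.74) and Klf4 at 0.64 (SE 0.59) on the log2 scale. All of these but Klf4 were higher in 3 of 3 same-numbered pairs, but their size depended on single libraries. Adgre1 was at 0.0192 without Runx1KO vehicle library 2 and at 2.62 without Control vehicle library 2. Leaving out libraries gave 0.91 to 2.87 for F13a1, 0.65 to 2.50 for Ccr2, 0.38 to 1.89 for Csf1r and 0.25 to 1.17 for Klf4, the highest F13a1 and Ccr2 values being those without Control vehicle library 3 and the highest Csf1r value that without Control vehicle library 2. Irf8 at -0.38 (SE 0.54), Ms4a6c at -0.26 (SE 0.99) and Cx3cr1 at -0.16 (SE 1.22) were within their errors.

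By edgeR's quasi-likelihood test with Benjamini-Hochberg adjustment over all genes tested, none of the 9 markers passed the threshold of 0.05 with vehicle, where 0.952% of all genes did (45 higher, 0.348%, and 78 lower, 0.604%; with library size alone in place of TMM, 45 higher and 50 lower). Before adjustment 1 marker, Ly6c2, had a p under 0.05, against 7.79% of all genes. Ly6c2 was also the 1 marker whose groups did not overlap, against 7.82% of genes lower without overlap and 5.42% higher. DESeq2 called Ly6c2 (log2 fold change -0.89, adjusted p = 0.00267), and limma-voom called none of the 9. The main fit ignored the library number, though the numbers paired the libraries of the genotype comparisons. With the library number as a block in edgeR, Ly6c2 had an adjusted p of 0.0601 and 315 genes were called in place of 123. Over all alternatives the adjusted p of Ly6c2 ranged between 0.00267 and 0.816.

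With LPS, the genotypes did not overlap for 4 markers. Klf4 averaged 1.85 ± 0.423 CPM in Runx1KO LPS and 0.394 ± 0.281 CPM in Control LPS (SD, n = 3 each), which is 4.66-fold in the fit (edgeR log2 fold change 2.22, standard error 0.61, adjusted p = 0.155). Ccr2 averaged 5.42 ± 4.10 CPM in Runx1KO LPS and 0.974 ± 0.236 CPM in Control LPS (edgeR log2 fold change 2.48, standard error 0.84, adjusted p = 0.296). F13a1 averaged 10.4 ± 3.58 CPM in Runx1KO LPS and 3.39 ± 2.28 CPM in Control LPS (edgeR log2 fold change 1.62, standard error 0.78, adjusted p = 0.520). These 3 were higher in 3 of 3 same-numbered pairs. Ly6c2 averaged 883 ± 81.6 CPM in Runx1KO LPS and 1455 ± 23.1 CPM in Control LPS (edgeR log2 fold change -0.72, standard error 0.24, adjusted p = 0.280) and was lower in 3 of 3. The 4 do not share a direction, and Ly6c2 and Ccr2, both markers of Ly6C-high monocytes, lay on opposite sides.

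None of the 9 markers passed the threshold with LPS by edgeR, where 0.921% of all genes did (0.348% higher and 0.573% lower). Before adjustment 3 of them, Klf4, Ly6c2 and Ccr2, had a p under 0.05, against 10.1% of all genes. Without overlap, 3 markers were higher in Runx1KO, against 6.51% of genes, and 1 was lower, against 6.76%. DESeq2 called Klf4 (log2 fold change 2.24, adjusted p = 0.0156) and Ly6c2 (-0.71, adjusted p = 0.0371), and limma-voom called none. Across the alternatives the adjusted p ran between 0.0156 and 0.861 for Klf4 and between 0.0371 and 1.00 for Ly6c2. With the library number as a block the adjusted p was 0.0779 for Klf4, 0.0915 for F13a1, 0.135 for Ly6c2 and 0.202 for Ccr2, and 302 genes were called in place of 119. Adgre1 had the widest error of the genes with a large fold change: it averaged 519 ± 625 CPM in Runx1KO LPS and 115 ± 95.4 CPM in Control LPS (edgeR log2 fold change 2.18, standard error 1.28, adjusted p = 0.647), and 0.55 on the log2 scale was left without Runx1KO LPS library 3. Csf1r stood at 0.73 (SE 0.74) and at -0.11 without that library. Ms4a6c at 0.33 (SE 0.98), Irf8 at -0.04 (SE 0.54) and Cx3cr1 at -0.51 (SE 1.21) were within their errors. The comparisons with vehicle and with LPS use different libraries on both sides.

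**Figure D3:**
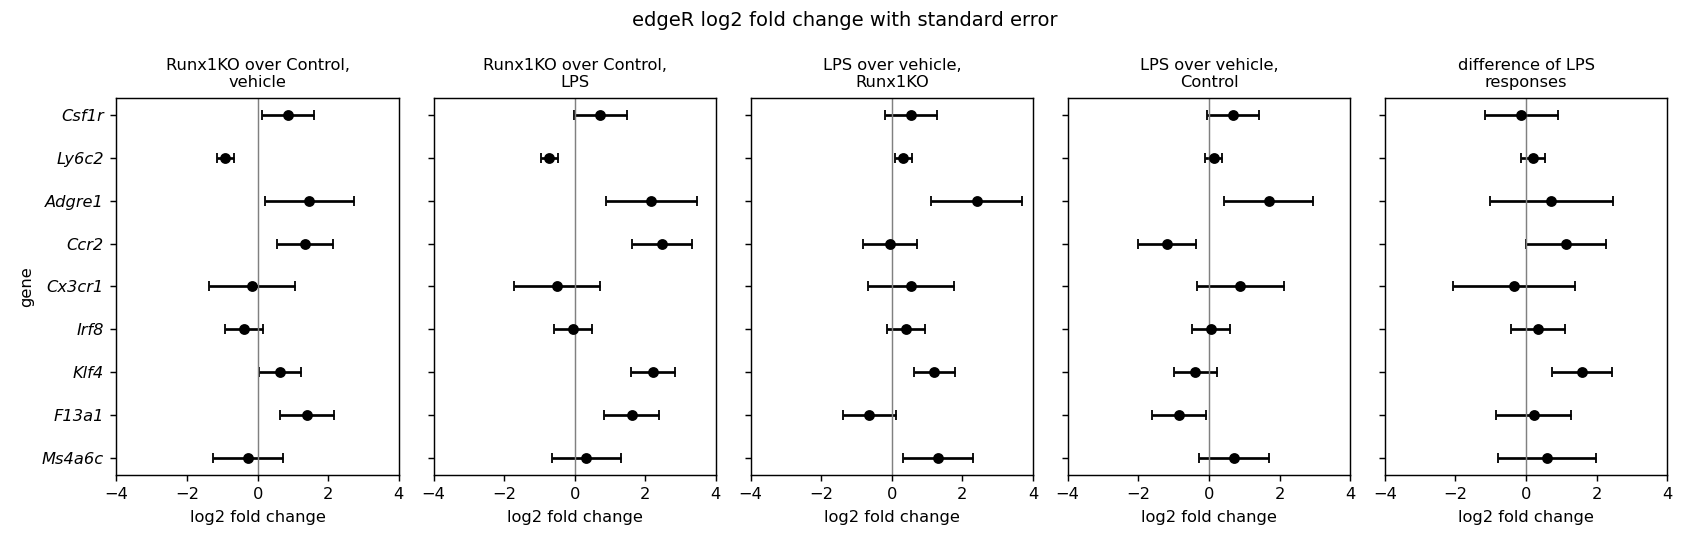
Log2 fold change of each marker from the edgeR fit (points) with its standard error (bars), for Runx1KO over Control with vehicle, Runx1KO over Control with LPS, LPS over vehicle in Runx1KO, LPS over vehicle in Control, and the difference of the LPS responses. Ly6c2 has the smallest error and is negative in both genotype panels (-0.91 and -0.72), and Adgre1 has among the widest errors in every panel.

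LPS gave no called marker in either genotype, and the folds of Adgre1 differed widely between library numbers. In Runx1KO cells Adgre1 averaged 519 ± 625 CPM with LPS and 98.3 ± 108 CPM with vehicle (SD, n = 3 each; edgeR log2 fold change 2.40, standard error 1.29, adjusted p = 0.873). The library numbers were not taken as pairs in Runx1KO cells, so folds by number there describe libraries that share a number. LPS over vehicle was 0.811-fold, 1.43-fold and 25.7-fold for numbers 1, 2 and 3 in Runx1KO cells. In Control cells it averaged 115 ± 95.4 CPM with LPS and 35.6 ± 34.0 CPM with vehicle (edgeR log2 fold change 1.69, standard error 1.26, adjusted p = 1.00), and the folds were 1.06, 1.62 and 12.5 for numbers 1, 2 and 3. The gene thus differed widely between LPS and vehicle in the libraries numbered 3 of both genotypes and little in those numbered 1. Csf1r had the same order of folds, 0.693, 1.03 and 2.30 in Runx1KO cells and 0.958, 1.15 and 4.80 in Control cells. The libraries numbered 3 are also those whose vehicle Tnf was lowest, at 73.0 CPM in Runx1KO and 28.2 CPM in Control cells; its part in the Adgre1 and Csf1r values was not tested.

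Klf4 was the marker whose groups did not overlap in Runx1KO cells, at 1.85 ± 0.423 CPM with LPS and 0.804 ± 0.114 CPM with vehicle (edgeR log2 fold change 1.20, standard error 0.58, adjusted p = 0.873), against 3.51% of genes higher and 3.2% lower without overlap. In Control cells Klf4 averaged 0.394 ± 0.281 CPM with LPS and 0.516 ± 0.303 CPM with vehicle, with 1 of 3 pairs positive. Ly6c2 was the marker whose groups did not overlap in Control cells, at 1455 ± 23.1 CPM with LPS and 1323 ± 61.9 CPM with vehicle (edgeR log2 fold change 0.14, standard error 0.24, adjusted p = 1.00; 3 of 3 pairs positive), against 2.84% of genes higher and 2.32% lower without overlap. On library size alone these groups overlapped, at 1310 to 1554 CPM in Control LPS and 1284 to 1493 CPM in Control vehicle. By edgeR 0 of 9 markers and 0% of all genes passed the threshold in either genotype; DESeq2 called 1 gene in Runx1KO cells, which is not a marker, and none in Control cells. Before adjustment no marker had a p under 0.05, against 5.23% of genes in Runx1KO and 0.604% in Control cells.

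The responses to LPS were also compared directly between genotypes. No marker passed, again with 0% of all genes called by edgeR and by DESeq2, and no marker had an unadjusted p under 0.05 where 0.596% of genes did. The nearest was Klf4, whose response was higher in Runx1KO than in Control cells by 1.58 on the log2 scale (SE 0.85, edgeR adjusted p = 1.00). For Adgre1 the difference was 0.71 (SE 1.74) and for Ccr2 it was 1.14 (SE 1.13).

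Across the 12 libraries the markers did not vary as 1 block. Csf1r and Adgre1 followed each other (Pearson r = 0.902 of log2 CPM), Irf8 followed Ms4a6c (r = 0.718) and Cx3cr1 followed Ms4a6c (r = 0.695), while Ly6c2 ran against Ccr2 (r = -0.767). These values describe libraries that share groups and numbers and carry no test. Each marker was also compared with 7050 genes whose mean log2 CPM reached 2. The highest of so many r values over 12 libraries are high in part by selection. The genes most like Adgre1 were Fam20c (r = 0.981), Rab10 (0.979) and Abhd17c (0.978). Those most like Csf1r were Atg101 (0.980), Vps72 (0.963) and Vnn3 (0.952). Ly6c2 was most like Lgals3 (r = 0.958), Gpr141 (0.956) and Hvcn1 (0.950). F13a1 was most like Ctsg (r = 0.962), the granule protease cathepsin G of early myeloid cells, then Ybx3 (0.929) and Tcf4 (0.924). Cx3cr1 was most like Ctsd (r = 0.949), Ndufb9 (0.938) and Spag7 (0.936), and Irf8 most like Churc1 (0.958), Zc3h13 (0.889) and Haus8 (0.878). Ccr2 was most like Plekha3 (r = 0.879), Fyttd1 (0.845) and Med14 (0.844). Klf4 was most like Npm1 (r = 0.878), Rps6-ps3 (0.877), which is a pseudogene, and Anapc13 (0.876). Ms4a6c was most like Pcf11 (r = 0.887), Dcaf13 (0.868) and Larp1 (0.859).

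Other genes of the monocyte programme, a list of 22 of which 19 were tested, gave 0 calls by edgeR in any of the 5 comparisons; limma-voom called none and DESeq2 called Cd300e with LPS. With vehicle 10 of 19 had a positive fold change, with a median log2 fold change of 0.09 against 0.0025 over all genes tested; 3 had an unadjusted p under 0.05, against 7.79% of all genes. With LPS 13 of 19 were positive, with a median of 0.37 against 0.03, and 2 had an unadjusted p under 0.05, against 10.1% of all genes. Cd300e, a receptor of monocytes, had 1.71 to 7.03 CPM in Runx1KO LPS, 0.842 to 1.62 CPM in Runx1KO vehicle, 0.301 to 1.13 CPM in Control LPS and 0.0420 to 0.440 CPM in Control vehicle libraries, without overlap of the genotypes in either treatment (log2 fold changes 2.73 with LPS and 2.36 with vehicle, edgeR adjusted p = 0.173 and 0.324). Lgals3, galectin 3, had 399 to 559 CPM in Runx1KO LPS, 320.3 to 509 CPM in Runx1KO vehicle, 689.5 to 820.5 CPM in Control LPS and 726 to 762 CPM in Control vehicle, the genotype order of Ly6c2. With the library number as a block 1 gene of the list passed with vehicle, Spn, the sialophorin CD43 (log2 fold change -1.60, edgeR adjusted p = 0.0408). Treml4, a receptor of Ly6C-low monocytes and macrophages, followed the libraries as Adgre1 did, with 15.2, 235 and 713 CPM in Runx1KO LPS, 21.3, 180.0 and 17.0 CPM in Runx1KO vehicle, 11.2, 121 and 155 CPM in Control LPS, and 11.8, 82.1 and 5.20 CPM in Control vehicle. Not all genes of the list did so, since Tgfbi fell from library 1 to library 3 in each group. It had 316, 147 and 89.9 CPM in Runx1KO LPS and 367, 245 and 96.5 CPM in Control LPS. Irf5, a transcription factor outside this list, had 28.1, 558 and 1019 CPM in Runx1KO LPS, so the pattern was not confined to the list.

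**Figure D4:**
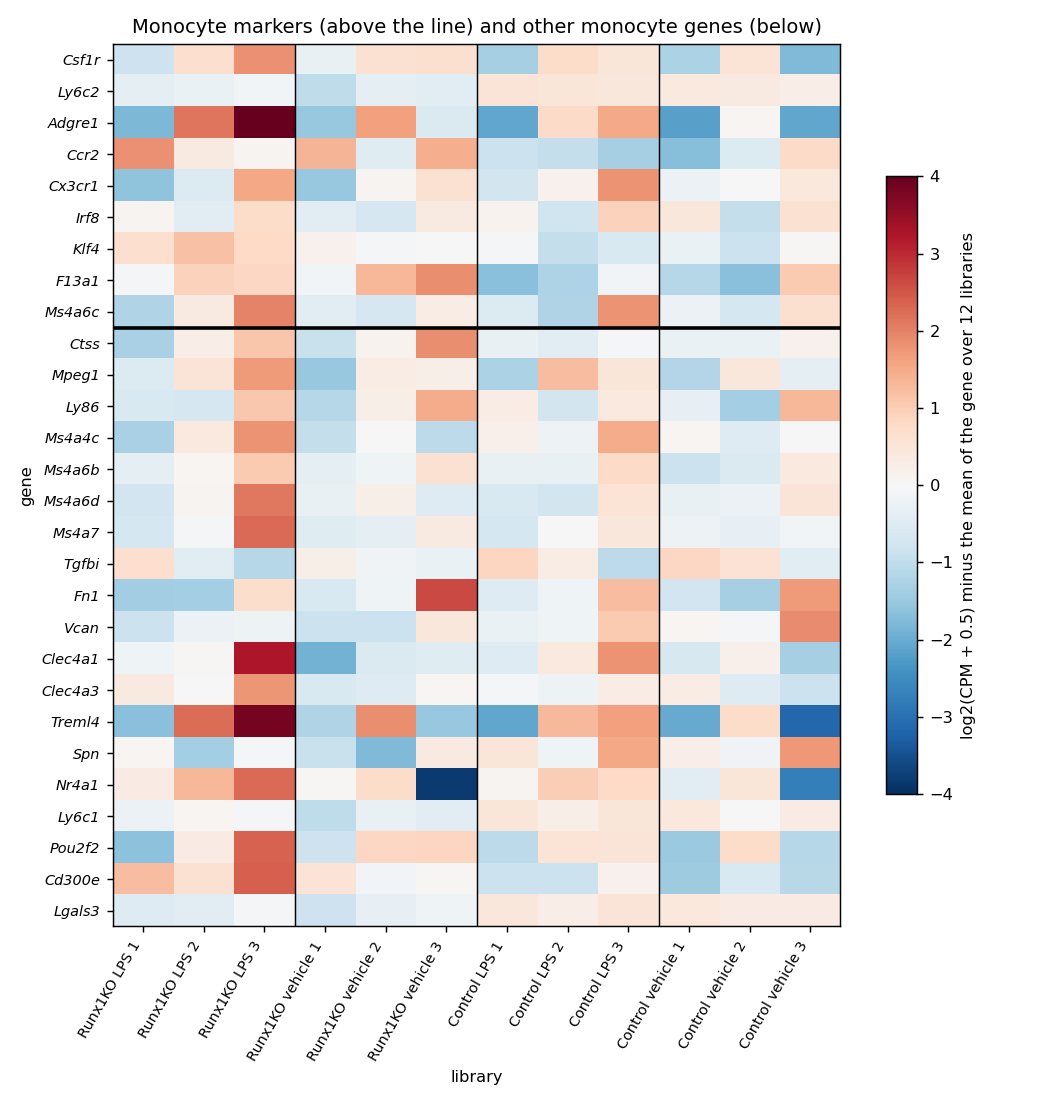
Log2(CPM + 0.5) of each gene minus its mean over the 12 libraries, with the 9 markers above the line and the 19 tested genes of the other monocyte list below it; columns are the libraries of Runx1KO LPS, Runx1KO vehicle, Control LPS and Control vehicle, and red is above and blue below the mean of the gene. Runx1KO LPS library 3 is the reddest column for Adgre1, Csf1r, Ms4a6c and Treml4, and Ly6c2 and Lgals3 are lower in the 6 Runx1KO libraries than in the 6 Control libraries.

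Genes listed for tissue macrophages differed widely in level in the same libraries. Of 21 listed, 10 stayed below 1 CPM in every library (C1qa, C1qc, Cd163, Cd5l, Maf, Marco, Mrc1, Siglec1, Spic and Timd4), the highest single value among them being 0.956 CPM. C1qb, of the complement C1q complex of macrophages, reached 1.35 CPM in the Runx1KO LPS library 3 in which Adgre1 was at 1219.9 CPM. In that library Hmox1 at 253 CPM and Vcam1 at 199 CPM had their highest values of all libraries. Slc40a1 had its lowest value there, at 78.3 CPM, and Cd68 stood at 47.6 CPM. The summed level of the list, which is carried by Slc40a1, Hmox1, Vcam1 and Cd68, was 301 to 622 CPM in Runx1KO LPS, 330.5 to 703 CPM in Runx1KO vehicle, 321 to 572 CPM in Control LPS and 299 to 615 CPM in Control vehicle, so the 4 groups overlapped. None of the 11 tested genes passed in any comparison by edgeR or limma-voom, and with LPS 1 of them, Mertk, had an unadjusted p under 0.05, against 10.1% of all genes, and was called lower by DESeq2. Their medians were 0.02 with vehicle and 0.56 with LPS for Runx1KO over Control, against 0.0025 and 0.03 over all genes.

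Dendritic cell and MHC class II genes, 14 listed and 11 tested, summed to 33.8 to 348 CPM in Runx1KO LPS, 59.9 to 76.5 CPM in Runx1KO vehicle, 86.0 to 237 CPM in Control LPS and 77.9 to 124 CPM in Control vehicle. By edgeR and limma-voom 0 passed in any comparison, where 1 gene with vehicle and 2 with LPS had an unadjusted p under 0.05 between genotypes, against 7.79% and 10.1% of all genes; DESeq2 called Ciita lower with vehicle and Irf4 lower with LPS. The median log2 fold change of Runx1KO over Control was -0.69 with vehicle and -0.68 with LPS, against 0.0025 and 0.03 over all genes. With the library number as a block Itgax, the integrin CD11c, passed in both treatments (log2 fold change -1.66 with vehicle, edgeR adjusted p = 0.0294, and -1.68 with LPS, adjusted p = 0.0294).

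Regulators and ligands around the markers gave 0 calls by edgeR as well. Of 20 transcription factors of myeloid fate, 19 were tested, with medians for Runx1KO over Control of 0.0011 with vehicle and 0.21 with LPS against 0.0025 and 0.03 over all genes; DESeq2 called Irf4 lower with LPS, and with the block Id2 passed with vehicle (log2 fold change -1.14, edgeR adjusted p = 0.0259). Spi1, which encodes PU.1, had 308 to 1149 CPM in Runx1KO LPS, 391 to 781 CPM in Runx1KO vehicle, 389.5 to 824 CPM in Control LPS and 394 to 878 CPM in Control vehicle. Of 12 ligands and related receptors, 9 were tested, of which 2 with vehicle and 3 with LPS had an unadjusted p under 0.05, against 7.79% and 10.1% of all genes; DESeq2 called Ccl2 in both treatments and Ccl7 with LPS. Csf1, a ligand of the Csf1r protein, had 58.6 to 472 CPM in Runx1KO LPS, 43.1 to 128 CPM in Runx1KO vehicle, 108 to 137 CPM in Control LPS and 87.2 to 107 CPM in Control vehicle. Its other ligand Il34 had no more than 0.0350 CPM in any library. Ccl2, the ligand of the Ccr2 protein, had 2.74, 38.8 and 145 CPM in Runx1KO LPS, 1.42, 20.4 and 1.89 CPM in Runx1KO vehicle, 0.150, 1.01 and 0.188 CPM in Control LPS, and 0.336, 0.360 and 0.127 CPM in Control vehicle. All Runx1KO libraries lay above all Control libraries for Ccl2, which missed the threshold with LPS (edgeR log2 fold change 7.10, standard error 1.57, adjusted p = 0.0628) and passed it with the block (6.98, adjusted p = 0.0310) and with no filter (7.06, adjusted p = 0.00716).

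The genes of the sort were tested beside the markers. Itgam, which encodes CD11b, had 1011 to 1661 CPM in Runx1KO LPS, 1057 to 1554 CPM in Runx1KO vehicle, 1273 to 1672 CPM in Control LPS and 1257 to 1741 CPM in Control vehicle, and Siglecf, excluded by the gate, had 4.61 to 8.95 CPM in Runx1KO LPS, 3.41 to 15.6 CPM in Runx1KO vehicle, 3.48 to 9.82 CPM in Control LPS and 5.27 to 9.28 CPM in Control vehicle. Ly6g was lower in Runx1KO without overlap in both treatments (log2 fold change -1.56 with vehicle, SE 0.33, edgeR adjusted p = 0.0521, and -0.93 with LPS, SE 0.33, adjusted p = 0.315), and passed with vehicle by DESeq2 (adjusted p = 0.000371) and by limma-voom (adjusted p = 0.0377). By edgeR it also passed with vehicle when the library number was a block (adjusted p = 0.0334), on median-of-ratios size factors (0.0495), with no filter (0.0420) and with only the groups compared (0.0438). Without Runx1KO LPS library 1 it passed in both treatments (edgeR adjusted p = 0.00874 with vehicle and 0.0277 with LPS). Without Runx1KO LPS library 3 it passed with vehicle (edgeR adjusted p = 0.0415). Of 14 genes of mature neutrophils, Ly6g among them, 0 passed in the main edgeR fit. No gene of the list other than Ly6g passed under any alternative run. Their summed level was 192722 to 214904 CPM in Runx1KO LPS, 138756 to 179103 CPM in Runx1KO vehicle, 188519 to 221820 CPM in Control LPS and 183293 to 200564 CPM in Control vehicle. With vehicle Runx1KO thus lay below Control, as Ly6c2 did, but with LPS the genotypes overlapped, unlike Ly6c2. Most of the sum came from S100a8, S100a9 and Ngp. With LPS, 4 genes of the list were lower without overlap, against 6.76% of all genes. The 1 higher without overlap, against 6.51%, was Retnlg, at 21059 to 27364 CPM in Runx1KO and 11368 to 14440 CPM in Control. What part the summed level has in the Ly6c2 values was not tested.

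Markers of other blood cells did differ between the genotypes. With vehicle, 4 of 9 tested platelet and megakaryocyte genes rose (Itga2b, Treml1, Pf4 and Ppbp), and with LPS 2 did (Itga2b and Treml1), by edgeR, against 0.348% of all genes in each. Itgb3, the integrin partner of Itga2b, was lower without overlap in both treatments (log2 fold change -0.69 with vehicle, edgeR adjusted p = 0.392, and -0.93 with LPS, adjusted p = 0.155), and passed with LPS by DESeq2 (adjusted p = 0.0330) and with the block (adjusted p = 0.0247). Itga2b, integrin alpha IIb of platelets, had 8.22 to 9.39 CPM in Runx1KO LPS, 8.07 to 11.1 CPM in Runx1KO vehicle, 0.401 to 1.51 CPM in Control LPS and 0.479 to 1.13 CPM in Control vehicle. Genes of basophils (Mcpt8 and Prss34), eosinophils (Ear2), T cells (Cd3d) and B cells (2 of 8 tested, among them Ms4a1) fell with vehicle, and Prss34, Cd3d and Ms4a1 fell with LPS, against 0.604% and 0.573% of all genes. Not all genes of these lists were lower. With vehicle, fold changes were positive for 1 of 6 tested basophil and mast cell genes and 3 of 7 eosinophil genes. They were also positive for 2 of 4 T and NK cell genes and 2 of 8 B lineage genes. With LPS the counts were 2, 2, 3 and 1 in that order. Ccr3, the eotaxin receptor of eosinophils, had 2.10 to 8.41 CPM in Runx1KO vehicle and 0.400 to 1.02 CPM in Control vehicle (log2 fold change 2.82, edgeR adjusted p = 0.0958), and passed by DESeq2 (adjusted p = 0.00205), with no filter (0.0483) and with the block (0.0484). Cd8a of T cells had 0.243 to 0.666 CPM in Runx1KO vehicle and 0.0400 to 0.212 CPM in Control vehicle (edgeR adjusted p = 0.631). Prss34, a basophil protease, had no reads in the 6 Runx1KO libraries and 2.33 to 18.5 CPM in Control LPS and 3.92 to 15.6 CPM in Control vehicle. Cd3d, part of CD3 on T cells, had 1.35 to 1.80 CPM in Runx1KO LPS, 1.68 to 3.06 CPM in Runx1KO vehicle, 35.7 to 47.5 CPM in Control LPS and 32.4 to 47.4 CPM in Control vehicle, while 6 of the 8 T and NK cell genes stayed below 1 CPM in every library. The part of other cells in the genotype values of the markers was not tested.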

How the data were processed

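Bulk RNA-seq of 12 libraries was used as whole-number read counts per gene. Per the labels' protocols, hind limb bones were crushed, neutrophils were sorted, treated cells went into Trizol, their RNA was column-purified with DNase treatment, ERCC spike-ins were mixed in, and libraries came from a kit for ultra-low input. Per the submitters' processing notes, the authors aligned reads with STAR 2.6.0a to mm9 and used featureCounts for counting; the sources used here do not give its version, the annotation or the strand setting. The deposited counts are not normalized, as unequal totals of whole numbers show. Counting error is largest for markers with few reads, and reads carry no molecular identifiers.

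Columns were matched to samples by title. Symbols were matched by gene identifier without its version (32620 of 37310 genes). Genes passing filterByExpr (12917) were scaled by TMM and tested with edgeR 4.0.16 in R 4.3.3 (quasi-likelihood, 1 model of 4 groups, threshold 0.05, Benjamini-Hochberg over all genes tested); log2 CPM used a prior count of 2. The standard error given for an edgeR fold change is its absolute log2 value divided by the square root of the F statistic. The edgeR method was tested on simulated data in which the changed genes had many reads and all genes had the same spread. No effect of the library number was simulated. The simulation therefore does not show what could be called for markers with few reads or a wide spread. Alternatives were DESeq2 1.42.0, limma-voom (limma 3.58.1), 2 other scalings, no filter, only the groups compared, the library number as a block and leaving out libraries. No 2 libraries of 1 group agreed within sampling noise (lowest chi-square per degree of freedom 68.3).

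The markers, 15 other gene lists and the rules for named genes were chosen with earlier results of these data known. All markers are named, with up to 4 called genes per list and direction and the 3 genes most like each marker, leaving out predicted genes; other list genes named were chosen after their values were seen. For 1 called gene no values are reported.

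Titles number the libraries 1 to 3 in each group. Deviations from group means of libraries with the same number correlated at 0.374 to 0.479 between the genotypes with vehicle and 0.429 to 0.566 with LPS. Between Control LPS and Control vehicle they correlated at 0.394 to 0.667. Differences by number were therefore read as pairs in these comparisons. Between Runx1KO LPS and Runx1KO vehicle 1 pair was at 0.00575, and the numbers were not read as pairs. The main edgeR fit did not use the library number, so its errors and adjusted p-values ignore this pairing. The alternative with the block put the number on all 12 libraries, also on the Runx1KO libraries not read as pairs.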

Additional observations from a re-analysis of the deposited data

How the results depend on the processing

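Values are numbers of genes called or log2 fold changes. DESeq2 called 386 genes for Runx1KO over Control with vehicle, 401 with LPS and 1 for LPS over vehicle in Runx1KO cells, with 1 marker (Ly6c2) among those with vehicle and 2 (Ly6c2 and Klf4) among those with LPS; no other alternative called a marker. With only the groups compared in the fit, 27 genes were called with LPS. The library number as a replicate block gave 315 genes with vehicle and 302 with LPS, and called no marker, with Ly6c2 at an adjusted p of 0.0601 with vehicle, so it changed no call of a marker. Leaving out libraries left between 1 and 171 genes called with vehicle, between 3 and 135 with LPS, and 0 to 0 in the other comparisons, with 0 to 0 markers in each. With vehicle, 57, 62 and 66 were called without Runx1KO vehicle libraries 1, 2 and 3, 47, 70 and 52 without Control vehicle libraries 1, 2 and 3, and 2, 1 and 6 without all libraries numbered 1, 2 and 3. With LPS, 53 and 62 were called without Runx1KO LPS libraries 2 and 3, 66, 61 and 49 without Control LPS libraries 1, 2 and 3, and 3, 4 and 25 without all libraries numbered 1, 2 and 3.

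Some directions turned, none of them called. For Runx1KO over Control with LPS, Irf8 was at 0.0294 with limma-voom and 0.0437 with the block, and Ms4a6c at -0.0028 on library size alone. For LPS over vehicle in Runx1KO cells, Cx3cr1 was at -0.40 with limma-voom and -0.0498 on library size alone, Ly6c2 at -0.0019 on library size alone and Ccr2 at 0.0728 with the block. In Control cells Irf8 was at -0.0885 on library size alone. For the difference of responses, F13a1 was at -0.063 with limma-voom and Ly6c2 at -0.0191 on library size alone. The cause was not tested, but library size alone also moved the median of all genes, to -0.28 for LPS in Runx1KO cells, -0.14 in Control cells and -0.15 for their difference. Leaving out libraries turned further values, which ranged as follows. Runx1KO over Control with vehicle had Cx3cr1 at -0.90 to 0.39 and Ms4a6c at -0.70 to 0.32. With LPS it had Csf1r at -0.11 to 1.22, Cx3cr1 at -2.81 to 0.82, Irf8 at -0.41 to 0.49 and Ms4a6c at -1.02 to 2.18. LPS over vehicle in Runx1KO cells had Csf1r at -0.28 to 0.98, Ccr2 at -0.88 to 0.55, Cx3cr1 at -1.75 to 1.29 and Ms4a6c at -0.0357 to 1.81. In Control cells Ccr2 was at -1.79 to 0.16, Cx3cr1 at -0.43 to 1.39, Irf8 at -0.46 to 0.41, Klf4 at -1.06 to 0.19, F13a1 at -1.54 to 0.62 and Ms4a6c at -1.13 to 1.29. The difference of responses had Csf1r at -1.17 to 0.30, Adgre1 at -0.92 to 2.15, Ccr2 at -0.0252 to 1.63, Cx3cr1 at -2.66 to 0.95, Irf8 at -0.0334 to 0.84, F13a1 at -1.26 to 0.88 and Ms4a6c at -0.76 to 2.40.

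The negative fold change of Ly6c2 and the positive ones of Ccr2, F13a1, Klf4 and Adgre1 between the genotypes kept their sign under every alternative run, but Adgre1 with vehicle was at 0.0192 without Runx1KO vehicle library 2. With LPS, leaving out libraries gave 0.55 to 2.90 for Adgre1, 1.65 to 2.79 for Ccr2, 1.26 to 2.32 for F13a1 and 1.64 to 3.02 for Klf4. Groups of 3 limit what can be called. Klf4, Cx3cr1, Ccr2 and Ms4a6c rest on few reads in several libraries. On library size alone mean Ly6c2 was 779 CPM in Runx1KO LPS, 1411 CPM in Control LPS and 1395 CPM in Control vehicle, and the Control groups overlapped.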
